A study of Mus musculus with 13 samples.

Results

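The genes described here are 30 mouse genes for the channels, a pump subunit and the gap junction proteins that shape the electrical activity of heart muscle, with calcium channels left out. They were taken by symbol from 55536 genes of a deposited read count table, and all 30 were found. RNA was read in nuclei of ventricular muscle from C57BL/6J mice, an inbred strain, sorted for Pcm1, a centriolar satellite protein used to mark cardiomyocyte nuclei. Every mouse received adeno-associated virus of serotype 6 into the abdomen on postnatal day 1, and ventricles were taken on postnatal day 56. The 4 groups were females given the vector with the human progesterone receptor (PGR_F, 3 libraries, numbered 1, 2 and 4), males given that vector (PGR_M, 3 libraries), females given the vector with no insert (Con_F, 4 libraries) and males given the vector with no insert (Con_M, 3 libraries). The control animals were therefore injected with virus as well, and the labels name no promoter for the insert and no uninjected group. Each library held nuclei of 3 to 6 pooled ventricles. The labels do not say that replicate libraries came from separate litters or days, so p-values measure only the spread between these libraries.

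The action potential of a ventricular cell starts when sodium channels open and depolarise the membrane. Potassium channels then bring it back: transient outward channels act early, delayed rectifiers later, and inward rectifiers hold the resting potential. The sodium-potassium pump keeps up the ion gradients, and connexins join neighbouring cells so that current passes between them. In mice repolarisation relies mostly on the transient outward and ultrarapid currents, while in humans the rapid and slow delayed rectifiers carry more of it.

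Total counts per library were 31.8 to 55.5 M in PGR_F, 45.3 to 57.9 M in PGR_M, 37.6 to 58.9 M in Con_F and 33.3 to 86.3 M in Con_M, and the 30 genes took 1.06% to 1.43% of them. Values are given as counts per M scaled with TMM factors (CPM), and all 30 genes passed the filter on low counts that left 16125 genes to test. Summed cardiomyocyte markers lay at 79759 to 86242 CPM in PGR_F, 85049 to 98904 in PGR_M, 83473 to 95288 in Con_F and 85694 to 94266 in Con_M, far above every other marker list. The human insert was not measured here. Con_F 4 held 159 counts of Y-linked genes, 1.01% of the male level, while the other female libraries stood at 0.0112% to 0.112%. Several results that rest on Con_F are therefore also given without Con_F 4.

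The regions before the transcription starts of 3 genes are shown because 1 of them, Ano5, is the member whose level differed between the sexes, and the others, Kcnj2 and Kcnj12, are the members with the smallest p for the vector. Each runs from 250 bases before to 50 after the start site that RefSeq gives on GRCm38.p6, all on the plus strand. They are chr7:51510779-51511078 for Ano5, chr11:111065914-111066213 for Kcnj2 and chr11:61065554-61065853 for Kcnj12. Capitals mark the CCAAT box (CCAAT, or ATTGG on the other strand) and the GC box (GGGCGG, or CCGCCC on the other strand), each searched on both strands.
Ano5: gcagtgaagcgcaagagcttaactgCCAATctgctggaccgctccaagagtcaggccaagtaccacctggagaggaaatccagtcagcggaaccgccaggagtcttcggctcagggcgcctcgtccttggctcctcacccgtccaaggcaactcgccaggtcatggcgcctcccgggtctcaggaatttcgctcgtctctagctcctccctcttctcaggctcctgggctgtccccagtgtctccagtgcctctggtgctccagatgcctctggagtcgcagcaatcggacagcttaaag
Kcnj2: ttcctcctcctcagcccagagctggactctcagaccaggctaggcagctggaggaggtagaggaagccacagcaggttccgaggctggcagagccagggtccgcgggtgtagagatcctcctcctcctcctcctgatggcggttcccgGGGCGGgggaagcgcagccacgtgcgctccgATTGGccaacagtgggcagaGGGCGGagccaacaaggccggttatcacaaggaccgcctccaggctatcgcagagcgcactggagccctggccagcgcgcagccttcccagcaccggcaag
Kcnj12: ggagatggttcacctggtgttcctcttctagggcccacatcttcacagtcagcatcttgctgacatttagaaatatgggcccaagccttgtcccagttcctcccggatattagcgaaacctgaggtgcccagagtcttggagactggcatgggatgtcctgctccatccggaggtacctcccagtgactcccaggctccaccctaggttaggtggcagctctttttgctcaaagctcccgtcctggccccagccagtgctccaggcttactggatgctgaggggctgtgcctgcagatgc
In the Ano5 window 1 CCAAT box lay at -225. In the Kcnj2 window GC boxes lay at -102 and -51, with a reversed CCAAT box at -71 between them. The Kcnj12 window held neither motif, and its start site (61065804) lies inside the interval counted for the gene (61022564 to 61071131), not at its edge. RefSeq promoter windows were at hand for 23 of the 30 genes. A member was counted if any of its windows held the motif, whereas the percentages are of single windows. The GC box was found in 14 of these 23 and in 35.7% of 32851 windows of the same length, and the CCAAT box in 7 of 23 and in 37.4%. The palindromic element bound by the progesterone receptor and its relatives (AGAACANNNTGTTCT) was found in 0 of 23 and in 3 windows of all, 0.00913%. Its half-site (TGTTCT, or AGAACA on the other strand), which is part of the palindrome, was found in 5 of 23 (Dpp6, Fgf13, Kcnab1, Kcnj5 and Scn4b) and in 19.0% of all windows. These are matches of letters in a short window, with no measurement of binding.

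The levels were compared between genes as CPM per kb of the counted interval, which for each of the 30 genes is the whole gene with its introns. The exons of a gene made up 0.794% (Fgf13) to 100% (Kcna5) of its interval, with a median of 14.4%, so the values of the long genes are largely those of intronic sequence. The 30 genes spanned several orders of magnitude on this scale, and 2 of the 29 steps between neighbours in the order separated genes whose 13 libraries did not overlap: the step below Gja1 and the step below Hcn2.

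The connexins lay at both ends. Gja1, which encodes the main gap junction protein of working ventricular muscle, was the highest of the 30 at 20.2 CPM per kb (range 16.1 to 24.0 over 13 libraries). Gjc1, a connexin of the developing heart and the conduction system, lay at 1.10 CPM per kb. Gja5, the connexin of atria and fast conduction fibres, lay at 0.0121 CPM per kb. In Gja1 the CPM were 544, 578 and 486 in PGR_F against 447, 507, 406 and 564 in Con_F, and 436, 566 and 605 in PGR_M against 479, 482 and 514 in Con_M. Each pair of vector groups overlapped.

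Among sodium channel genes Fgf13, an intracellular fibroblast growth factor that binds sodium channels and modulates them, was highest at 9.01 CPM per kb. Scn4a, the pore subunit best known from skeletal muscle, lay at 1.16 CPM per kb and Scn4b, an auxiliary beta subunit, at 0.242 CPM per kb. Fgf13 had 5449, 4647 and 4356 CPM in PGR_F against 4228, 4883, 3888 and 4522 in Con_F, and 4007, 4602 and 4662 CPM in PGR_M against 4650, 4880 and 4474 in Con_M. It is X-linked, and its libraries overlapped between the sexes.

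Of the transient outward genes, the pore subunits Kcnd2 and Kcnd3 lay at 6.29 and 3.17 CPM per kb and Kcnip2, a calcium-binding subunit that the current needs, at 6.41. Dpp6, a peptidase-like membrane protein that associates with these channels, lay at 0.00509 CPM per kb over an interval of 910303 bases. The ratio of Kcnd2 to Kcnd3 per kb was 2.23 ± 0.22 in PGR_F, 1.91 ± 0.17 in PGR_M, 1.90 ± 0.32 (n = 4) in Con_F and 1.94 ± 0.23 in Con_M (SD, n = 3 where not given).

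Of the delayed rectifier and leak channels, Kcnk3, which encodes a leak channel, led with 6.73 CPM per kb, followed by Kcnh2, the pore of the rapid delayed rectifier, with 3.59 and Kcnq1, the pore of the slow one, with 3.06. Kcne1, the small partner of Kcnq1, lay at 0.199, Kcna5, an ultrarapid channel, at 0.0948 and Kcnab1, a cytoplasmic beta subunit, at 0.00105 CPM per kb, the lowest of all. Kcnk3 had 202, 207 and 265 CPM in PGR_F against 249, 211, 225 and 262 in Con_F, and 258, 272 and 283 in PGR_M against 227, 294 and 294 in Con_M.

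Of the inward rectifiers, Kcnj2, the main subunit of the ventricular resting current, lay at 5.46 CPM per kb and Kcnj12, a second subunit of that current, at 1.64. Kcnj3 and Kcnj5, the subunits of the channel opened by acetylcholine, lay at 4.58 and 2.78 CPM per kb. In the ATP-sensitive channel the pore Kcnj11 lay at 6.09 and the other pore subunit, Kcnj8, at 0.119 CPM per kb, with the sulfonylurea receptors Abcc9 at 2.49 and Abcc8 at 1.99. The ratio of Abcc9 to Abcc8 per kb was 1.21 ± 0.07 in PGR_F, 1.25 ± 0.10 in PGR_M, 1.19 ± 0.06 (n = 4) in Con_F and 1.43 ± 0.23 in Con_M (SD, n = 3 where not given).

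The pacemaker channels Hcn2 and Hcn4 lay at 0.726 and 0.383 CPM per kb. Atp1b1, the beta subunit of the sodium-potassium pump, lay at 6.81 CPM per kb. Trpm4, a calcium-activated cation channel, lay at 3.26, Trpm7, a cation channel fused to a kinase, at 2.72 and Ano5, an anoctamin whose human mutations cause muscular dystrophy, at 0.0418 CPM per kb. Atp1b1 had 109, 164 and 140 CPM in PGR_F against 117, 121, 115 and 154 in Con_F, and 159, 156 and 158 in PGR_M against 142, 161 and 184 in Con_M. Trpm4 had 93.1, 95.9 and 106 CPM in PGR_F against 94.7, 86.9, 121 and 130 in Con_F, and 128, 92.1 and 79.2 in PGR_M against 96.5, 91.3 and 107 in Con_M.

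**Figure D1:**
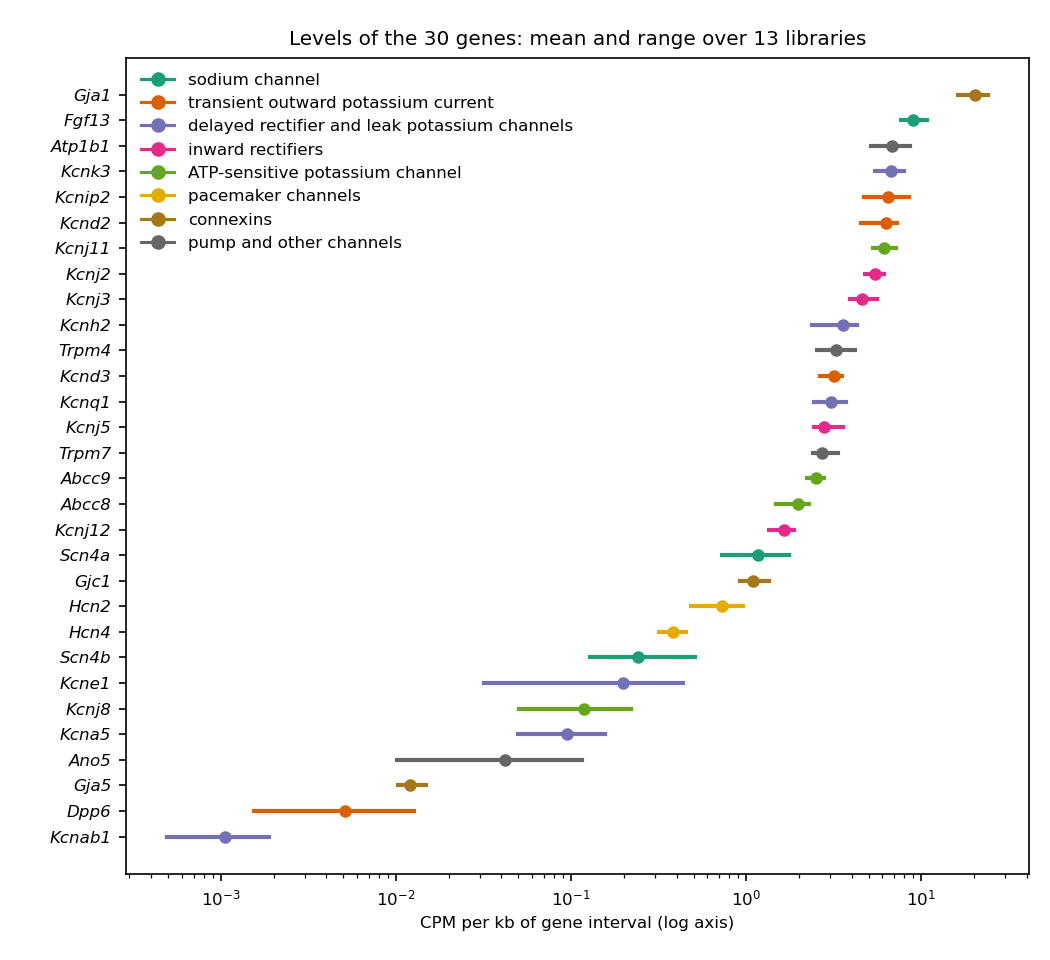
Level of each of the 30 genes as CPM per kb of gene interval on a log axis; points are means over 13 libraries, lines run from the lowest to the highest library, and colours give the role. Gja1 stands apart at the top with 20.2 CPM per kb, and Kcnab1 is lowest with 0.00105.

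The order depends on the length used. The same counts, introns included, were also divided by the exon length alone. Fgf13 then ranked first with 1134 CPM per kb, Kcnd2 next with 628 and then Kcnq1 with 239, and Gja1 ranked 7 with 49.6. Genes with a small exon share rise on this scale by construction (0.794% in Fgf13, 1.00% in Kcnd2 and 1.28% in Kcnq1). It therefore gives no level of the exons. Of the 30 intervals, 15 overlapped another gene. Only 1 of 18 overlapping genes on the same strand had any count (AC113458.1, with 598 counts in all against 180 of Kcnab1, which it overlaps), while 19 of 26 on the opposite strand had counts. The libraries were directional and the deposited counts carry the tag strrev in their name, which points to counting by strand. The exact setting is not spelled out, so the values of these genes are read with that limit. The largest such pair was Kcnq1 and Kcnq1ot1, an antisense RNA known to silence neighbouring imprinted genes, with 602730 and 62734 counts in all. Gpr89, opposite Gja5, had 16437 counts against 1309 of Gja5.

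The genes also differed in how much they varied between replicate libraries. The SD within groups on the log2 scale, pooled over 9 degrees of freedom, had a median of 0.176 over the 30 genes, against 0.189 over all genes tested. It was lowest in Abcc9 at 0.086, followed by Kcnj12 at 0.10 and Kcnj2 at 0.10. It was highest in Kcne1, at 1.08. Kcne1 had 1.97, 2.00 and 4.59 CPM in PGR_F against 0.780, 2.26, 2.87 and 5.87 in Con_F, and 1.85, 3.16 and 3.37 in PGR_M against 0.431, 2.56 and 3.17 in Con_M. The highest Kcne1 library was thus 13.6-fold above the lowest, with no order of groups, and the library numbered 1 was the lowest of each group.

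The remaining members passed the test in no comparison, and 3 of them were measured with few counts. Kcnd2 had 3324 ± 371 CPM in PGR_F and 2937 ± 563 in Con_F, and 3375 ± 379 in PGR_M and 3398 ± 318 in Con_M (SD, n = 4 in Con_F and 3 elsewhere, as for the genes that follow). Kcnj11 had 40.3 ± 3.71 CPM in PGR_F and 43.0 ± 4.65 in Con_F, and 40.9 ± 2.85 in PGR_M and 41.1 ± 4.82 in Con_M. Abcc9 had 283 ± 6.54 CPM in PGR_F and 269 ± 18.9 in Con_F, and 301 ± 26.0 in PGR_M and 294 ± 7.34 in Con_M. Each of these 3 genes had overlapping libraries between the vector groups of each sex, and so did Scn4a, Hcn4 and Trpm7. Scn4a had 38.1 ± 5.28 CPM in PGR_F and 36.5 ± 9.39 in Con_F, and 47.0 ± 12.2 in PGR_M and 40.9 ± 6.54 in Con_M. Hcn4 had 14.4 ± 2.32 CPM in PGR_F and 14.8 ± 0.691 in Con_F, and 15.3 ± 2.47 in PGR_M and 16.6 ± 1.57 in Con_M. Trpm7 ran from 203 to 282 CPM over the 13 libraries and Gjc1 from 18.5 to 27.0. Kcna5, Kcnab1 and Kcnj8 rested on 5 to 27, 5 to 33 and 12 to 86 counts in a library, in that order, and spanned 0.142 to 0.449, 0.132 to 0.502 and 0.342 to 1.49 CPM.

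The first comparison asked what the vector with the progesterone receptor did to these genes, averaged over the sexes. Of the 30 genes 0 passed the test (edgeR's quasi-likelihood test, adjusted p under 0.05 over all 16125 genes), and 0.0062% of all genes tested did, which is 1 gene. That count over all genes rests on single libraries: it was 338 without Con_F 4 and 34 without PGR_F 4, with 0 of the 30 called in either case. DESeq2 and limma-voom called 0 of the 30 as well, here and in each sex and in the difference between the sexes. At an unadjusted p under 0.05 stood 4 of the 30, or 13.3%, against 14.8% of all genes, a share near the background. Log2 fold changes of the 30 ran from -0.31 (Ano5) to 0.26 (Kcne1), with a median of 0.03 against 0.00 over all genes, and 16 of 30 were above 0 against 51% of all genes. By role, all 3 connexins (0.10 to 0.19) and all 3 sodium channel genes (0.03 to 0.13) were above 0, with none past the test. The sign was not stable in Fgf13, at -0.02 without PGR_F 1, or in Scn4b, at -0.19 without PGR_M 1. All 30 members overlapped between the PGR and control libraries, whereas of all genes 0.26% lay wholly above the control libraries and 0.36% wholly below, 0.62% in all.

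The smallest p belonged to the inward rectifiers of the resting current, with opposite signs. Kcnj12 (ENSMUSG00000042529, chromosome 11, 61022564 to 61071131, plus strand, GRCm38) had 72.7, 72.6 and 79.7 CPM in PGR_F against 79.7, 85.1, 88.9 and 81.6 in Con_F. In males it had 81.5, 71.5 and 65.2 CPM in PGR_M against 83.0, 91.4 and 83.8 in Con_M. Within each sex every PGR library was below every control library, although the vector groups overlapped once the sexes were joined. In females the margin was close to a tie, with PGR_F 4 at 79.67 CPM and Con_F 1 at 79.70 CPM. The averaged log2 fold change of Kcnj12 was -0.20 (SE 0.06, edgeR adjusted p = 0.158), a fold of 0.870. Without Con_F 4 it was -0.21 (edgeR adjusted p = 0.0922).

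Kcnj2 (ENSMUSG00000041695, chromosome 11, 111066164 to 111076821, plus strand) had 65.7, 65.3 and 65.6 CPM in PGR_F against 50.7, 56.0, 53.4 and 53.7 in Con_F. In males it had 55.0, 60.4 and 64.2 CPM in PGR_M against 51.3, 52.3 and 63.5 in Con_M. The female groups did not overlap and the male groups did. The averaged log2 fold change of Kcnj2 was 0.20 (SE 0.06, edgeR adjusted p = 0.164), a fold of 1.15. It was also 0.20 without Con_F 4 (edgeR adjusted p = 0.107). Per kb, the ratio of Kcnj2 to Kcnj12 was 4.11, 4.10 and 3.75 in PGR_F against 2.90, 3.00, 2.74 and 3.00 in Con_F, and 3.08, 3.85 and 4.49 in PGR_M against 2.82, 2.61 and 3.45 in Con_M. The ratio separated the female groups and not the male groups, and it was not tested, since both genes were picked by their p in this comparison.

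Kcnip2 (chromosome 19, 45791839 to 45816061, minus strand) had 157, 114 and 157 CPM in PGR_F against 207, 187, 203 and 135 in Con_F, and 128, 135 and 148 in PGR_M against 135, 146 and 168 in Con_M. Con_F 4 lay below the other Con_F libraries and inside the range of PGR_F. The averaged log2 fold change of Kcnip2 was -0.25 (SE 0.11, edgeR adjusted p = 0.304). It was -0.31 without Con_F 4 (edgeR adjusted p = 0.0741) and -0.17 without PGR_F 2. Kcnq1 (chromosome 7, 143106362 to 143427042, plus strand) had 1186, 1094 and 1013 CPM in PGR_F against 782, 878, 983 and 987 in Con_F, and 936, 1080 and 961 in PGR_M against 841, 952 and 1045 in Con_M. Its averaged log2 fold change was 0.17 (SE 0.08, edgeR adjusted p = 0.309), with the antisense overlap given above. Gja5 stood at 0.19 on the same scale (SE 0.10, edgeR adjusted p = 0.398). It had 2.06, 2.41 and 2.57 CPM in PGR_F against 2.01, 2.05, 2.27 and 1.98 in Con_F, and 1.87, 2.30 and 2.14 in PGR_M against 1.86, 1.82 and 1.77 in Con_M.

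**Figure D2:**
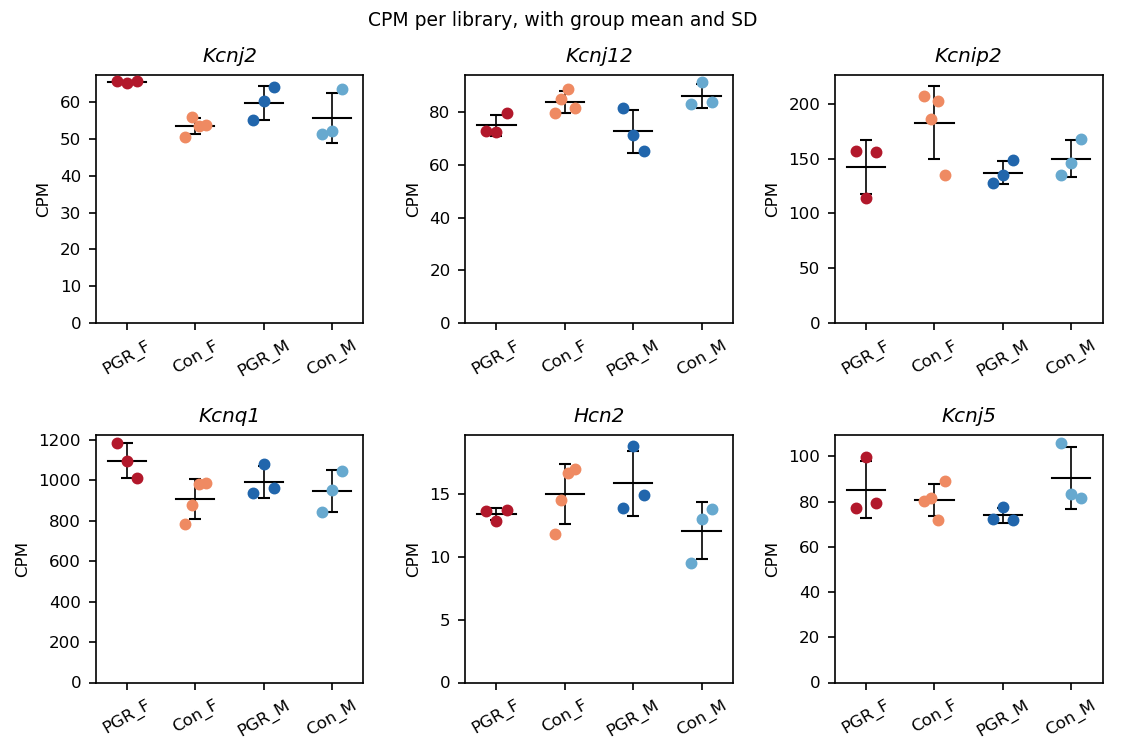
CPM of 6 genes in each library (points), with the group mean (line) and SD (bar), n = 3 libraries in PGR_F, PGR_M and Con_M and 4 in Con_F; the axes start at 0. Kcnj2 libraries of PGR_F sit at 65.3 to 65.7 CPM, above all Con_F libraries, and Kcnj12 is lower with the PGR vector in each sex.

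In females alone the vector was again followed by no call among the 30 genes (edgeR, 0 of 30, with 0% of all genes called, or 20 genes and 0 of the 30 without Con_F 4), and 3 of 30, or 10%, stood at an unadjusted p under 0.05 against 10.9% of all genes. Log2 fold changes ran from -0.36 (Kcnip2) to 0.29 (Kcnj2), with a median of 0.01, and 17 of 30 were above 0 against 50.7% of all genes. The PGR_F libraries lay wholly above Con_F for Kcnj2 and Kcnq1 and, by a narrow margin, wholly below for Kcnj12. So 3 of 30 did not overlap, against 8.24% of all genes (4.17% above and 4.07% below). The log2 fold change was 0.29 for Kcnj2 (SE 0.08, edgeR adjusted p = 0.302) and 0.27 for Kcnq1 (SE 0.10, edgeR adjusted p = 0.385). It was -0.36 for Kcnip2 (SE 0.15, edgeR adjusted p = 0.402), -0.22 without PGR_F 2 and -0.48 without Con_F 4. It was -0.16 for Kcnj12 (SE 0.08, edgeR adjusted p = 0.495).

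Kcnj3 came next in females, with 903, 861 and 668 CPM in PGR_F against 633, 740, 686 and 777 in Con_F. PGR_F 1 and PGR_F 2 lay above all Con_F libraries and PGR_F 4 near the bottom of them. The log2 fold change was 0.19 (SE 0.11, edgeR adjusted p = 0.524), and it was 0.10 without PGR_F 1 and 0.31 without PGR_F 4. All 15 tested endothelial markers were below 0 in this comparison, with 0 called and summed levels of 55.1 to 104 CPM in PGR_F and 80.0 to 98.8 in Con_F. In males 14 of the 15 were above 0 (median 0.25), and in the averaged vector comparison 8 of the 15 were. The part of endothelial cells in the members' values was not tested. In bulk nuclei fewer cells of a type and less RNA per cell cannot be told apart.

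In males alone 0 of 30 genes passed (edgeR, 0% of all genes, or 3 genes and 0 of the 30 without PGR_M 2), and 3 of 30, or 10%, stood at an unadjusted p under 0.05 against 7.48% of all genes. Log2 fold changes ran from -0.48 (Ano5) to 0.53 (Kcne1), with a median of 0.00, and 15 of 30 were above 0 against 50.1% of all genes. PGR_M libraries lay wholly above Con_M for Hcn2 and Gja5 and wholly below for Kcnj12 and Kcnj5, so 4 of 30 did not overlap, against 15.7% of all genes (7.2% above and 8.48% below), a share near the background. The log2 fold change of Kcnj12 was -0.24 (SE 0.09, edgeR adjusted p = 0.611). That of Ano5, whose values are given with the sex comparison, was -0.48 (SE 0.32, edgeR adjusted p = 0.773) and -0.09 without Con_M 1.

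Hcn2 (chromosome 10, 79716634 to 79736108, plus strand) had 13.8, 18.8 and 14.9 CPM in PGR_M against 9.47, 12.99 and 13.8 in Con_M. Con_M 1 was the lowest of all 13 libraries for Hcn2, and PGR_M 1 lay only just above Con_M 3. The log2 fold change in males was 0.40 (SE 0.16, edgeR adjusted p = 0.611), and 0.24 without Con_M 1. In females Hcn2 had 13.7, 12.8 and 13.7 CPM in PGR_F against 11.8, 14.5, 16.7 and 16.9 in Con_F. PGR_F lay inside the range of Con_F.

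Kcnj5 (chromosome 9, 32314707 to 32344350, minus strand) had 72.2, 77.8 and 72.0 CPM in PGR_M against 106, 83.5 and 81.4 in Con_M. Its log2 fold change in males was -0.29 (SE 0.12, edgeR adjusted p = 0.611), and -0.15 without Con_M 1, the highest library. In females Kcnj5 had 77.1, 99.7 and 79.2 CPM in PGR_F against 80.2, 81.5, 72.0 and 89.2 in Con_F, and the groups overlapped. Abcc8 had 152, 172 and 154 CPM in PGR_M against 112, 142 and 159 in Con_M, which gave 0.21 on the log2 scale (SE 0.12, edgeR adjusted p = 0.709) and 0.08 without Con_M 1. In females it had 150, 151 and 161 CPM in PGR_F against 135, 141, 152 and 170 in Con_F. Con_M 1, the deepest library, was thus at an end of the male range for Hcn2, Kcnj5 and Abcc8. Atrial and conduction markers, which mark cells known to be rich in Hcn channels, Kcnj5 and Gja5, summed to 226 to 299 CPM in PGR_M and 219 to 221 in Con_M, with 11 of 14 above 0, a median of 0.46 and 0 called. The gap between those sums came from Fgf12, an intracellular fibroblast growth factor like Fgf13 that is also counted in the sodium channel list, at 21.04, 90.7 and 100 CPM in PGR_M against 24.4, 18.2 and 18.4 in Con_M. Without Fgf12 the sums were 196 to 208 CPM in PGR_M and 195 to 203 in Con_M, and the groups overlapped. Most of what remained was Tbx5, with a mean of 138 CPM in PGR_M and 146 in Con_M. These sums therefore say little of the markers at lower levels. Of the 14 tested markers, 4 stood at an unadjusted p under 0.05 by edgeR's test, against 7.48% of all genes. The part of atrial and conduction cells in these values was not tested.

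**Figure D3:**
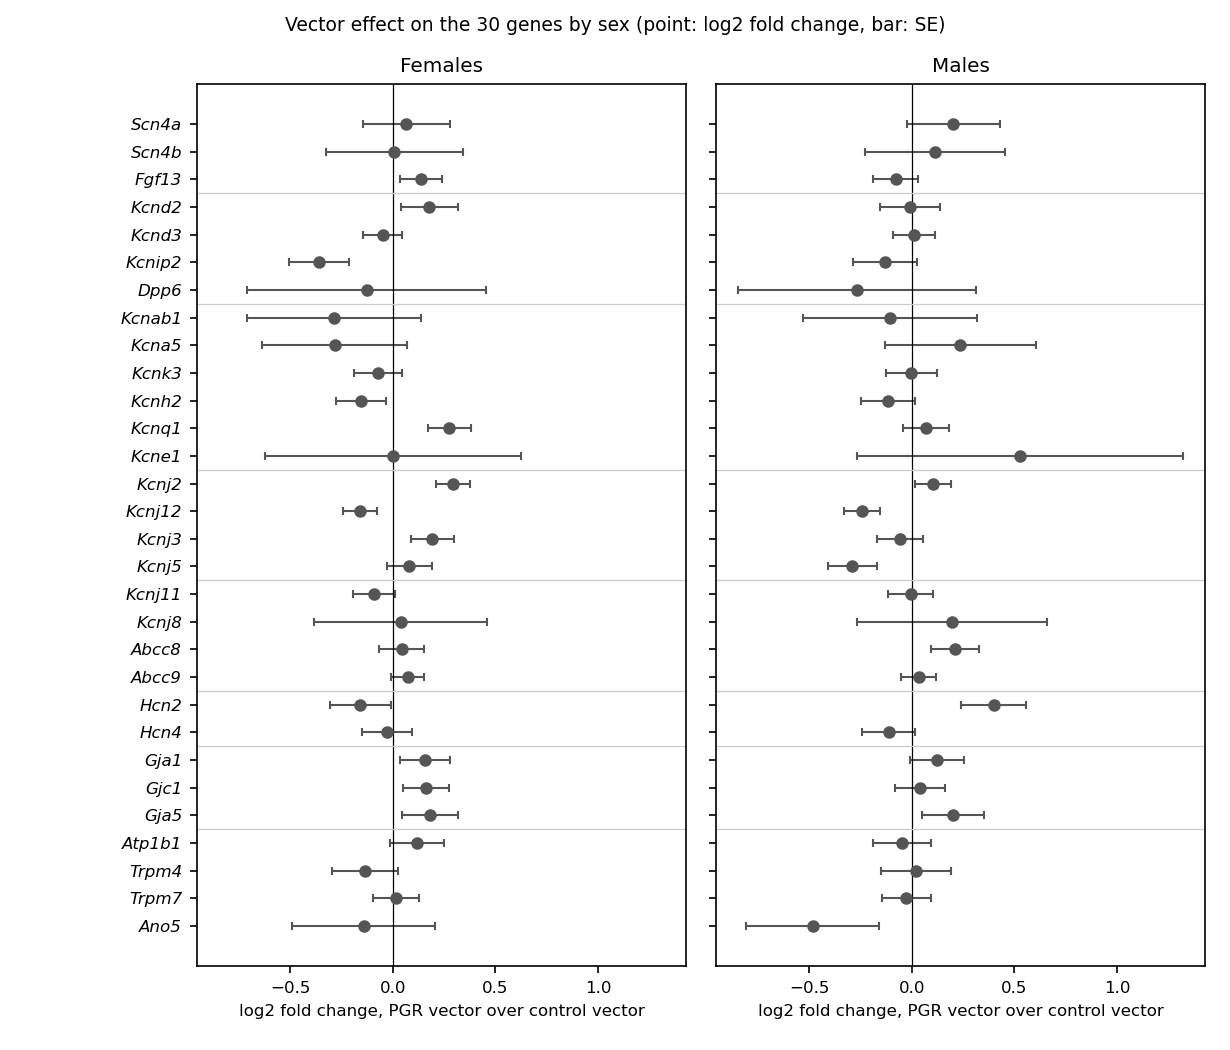
Log2 fold change of the PGR vector over the control vector in females (left) and males (right) for the 30 genes; points are estimates, bars are 1 SE, and grey lines separate the roles. No gene passed the test, Kcnj12 lies below 0 in each sex, and Hcn2 lies at -0.16 in females and 0.40 in males.

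Whether the vector acted differently in females and males was tested in the same model, as the female minus the male log2 fold change. Of the 30 genes 0 passed (edgeR, 0% of all genes), and 2 of 30, or 6.67%, stood at an unadjusted p under 0.05 against 3.26% of all genes. These were Hcn2 at -0.56 (SE 0.22, edgeR adjusted p = 1.00) and Kcnj5 at 0.37 (SE 0.16, edgeR adjusted p = 1.00), which are the members moved by Con_M 1 above. Without it the difference was -0.40 for Hcn2 and 0.23 for Kcnj5. Kcnj3 was at 0.25 (SE 0.15), Kcnj2 at 0.19 (SE 0.12) and Fgf13 at 0.21 (SE 0.15). Without PGR_F 1 the value was 0.16 for Kcnj3 and 0.11 for Fgf13, and without Con_M 3 it was 0.08 for Kcnj2. Kcnj2, Kcnj12, Kcnj3 and Kcnj5 were all above 0 in this comparison, between 0.08 and 0.37, and none passed. The pores of the ATP-sensitive channel, Kcnj11 at -0.09 and Kcnj8 at -0.16, were below 0. Of all genes 51% were above 0.

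The last comparison was that of females with males, averaged over the vectors. It held the only member that passed in any comparison: Ano5 was lower in females. Of the 30 genes 1 passed, 3.33%, against 0.887% of all genes (143 genes, 0.478% higher and 0.409% lower in females; 64 without Con_M 2, 371 without Con_F 4 and 465 without Con_M 1), and 8 of 30, or 26.7%, stood at an unadjusted p under 0.05 against 15.1%. The median log2 fold change was 0.02 for the 30 genes and 0.01 for all genes, and 18 of 30 were above 0 against 51.6% of all genes.

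Ano5 (ENSMUSG00000055489, chromosome 7, 51511029 to 51598709, plus strand, GRCm38), whose start region with its CCAAT box is printed above, had 1.97, 1.59 and 1.29 CPM in PGR_F against 5.56, 4.30 and 5.15 in PGR_M. Under the control vector it had 1.87, 0.887, 1.51 and 2.80 CPM in Con_F against 10.1, 4.81 and 5.85 in Con_M. All 7 female libraries (0.887 to 2.80 CPM, median 1.59) lay below all 6 male libraries (4.30 to 10.1 CPM, median 5.36), which held for 1 of 30 members. Of all genes 0.905% did not overlap between the sexes, 0.54% higher and 0.366% lower in females. The log2 fold change was -1.82 (SE 0.24, edgeR adjusted p = 0.00270), so the level in females was 0.283 of that in males, and the gene ranked 23 among all genes by p. Without Con_F 4 it was -1.97 (edgeR adjusted p = 0.000356), and without Con_M 1, the highest library, -1.63 (edgeR adjusted p = 0.00181). It passed under all 20 alternative settings, with adjusted p between 3.44e-13 and 0.0156. The female minus male vector effect was 0.34 for Ano5 (SE 0.47, unadjusted p = 0.485 by edgeR's quasi-likelihood test), with an error too wide to show whether the sex difference depended on the vector.

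The Ano5 call rests on few counts, 38 to 108 in a female library and 169 to 867 in a male one, in a gene that skeletal muscle is also known to express. A list of 14 skeletal muscle markers, added after the data were seen, summed to 7.89 to 10.9 CPM in PGR_F against 10.9 to 12.6 in PGR_M, and 5.18 to 13.1 in Con_F against 8.64 to 12.3 in Con_M. Most of that sum was Cacna1s, the calcium channel of skeletal muscle, with 4.25 to 11.7 CPM over the 13 libraries. Of the 4 markers with enough counts to be tested, 1 was above 0 and 3 were below (median -0.19), and 1 was called. That was Ryr1, the calcium release channel of skeletal muscle, which was lower in females like Ano5, at -2.36 on the log2 scale (SE 0.33, edgeR adjusted p = 0.00253). Ryr1 had 0.0936, 0.143 and 0.170 CPM in PGR_F against 0.656, 1.46 and 1.58 in PGR_M, and 0.399, 0.210, 0.191 and 0.767 in Con_F against 0.955, 1.54 and 1.15 in Con_M. The female and male libraries of the same vector did not overlap, on 3 to 29 counts in a female library and 37 to 82 in a male one. The other tested markers were Cacna1s at -0.19, Atp2a1, a calcium pump of fast skeletal fibres, at -0.20 and Tnnt3, the fast skeletal troponin T, at 0.63, none of them called. Myh1, Myh2 and Myh4, the fast skeletal myosins, had at most 2 counts in a library and 13 counts in all. Myl1, a myosin light chain also known from fast skeletal muscle, was counted in the atrial and conduction list and not in this one. Its mean was 7.33 CPM in PGR_F against 10.1 in PGR_M, and 7.32 in Con_F against 11.8 in Con_M. Myl1 was lower in females like Ano5, at -0.58, and was not called. It was the only tested atrial and conduction marker below 0. Fibroblast markers lay the other way from Ano5: all 13 were above 0 (median 0.69, 0 called), and they summed to 121 to 238 CPM in PGR_F against 81.4 to 178 in PGR_M, and 167 to 219 in Con_F against 74.8 to 140 in Con_M. All 15 endothelial markers were above 0 as well (median 0.51, 0 called), and they summed to 55.1 to 104 CPM in PGR_F against 44.3 to 84.4 in PGR_M, and 80.0 to 98.8 in Con_F against 38.7 to 76.7 in Con_M. Of the other marker lists, 8 of 10 smooth muscle and pericyte markers (median 0.13), 10 of 12 macrophage and leukocyte markers (0.25), 3 of 4 neural markers (0.29), 13 of 14 atrial and conduction markers (0.29) and 6 of 14 cardiomyocyte markers (-0.02) were above 0, with 0 called. The part of these cell types in the sex difference was not tested.

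**Figure D4:**
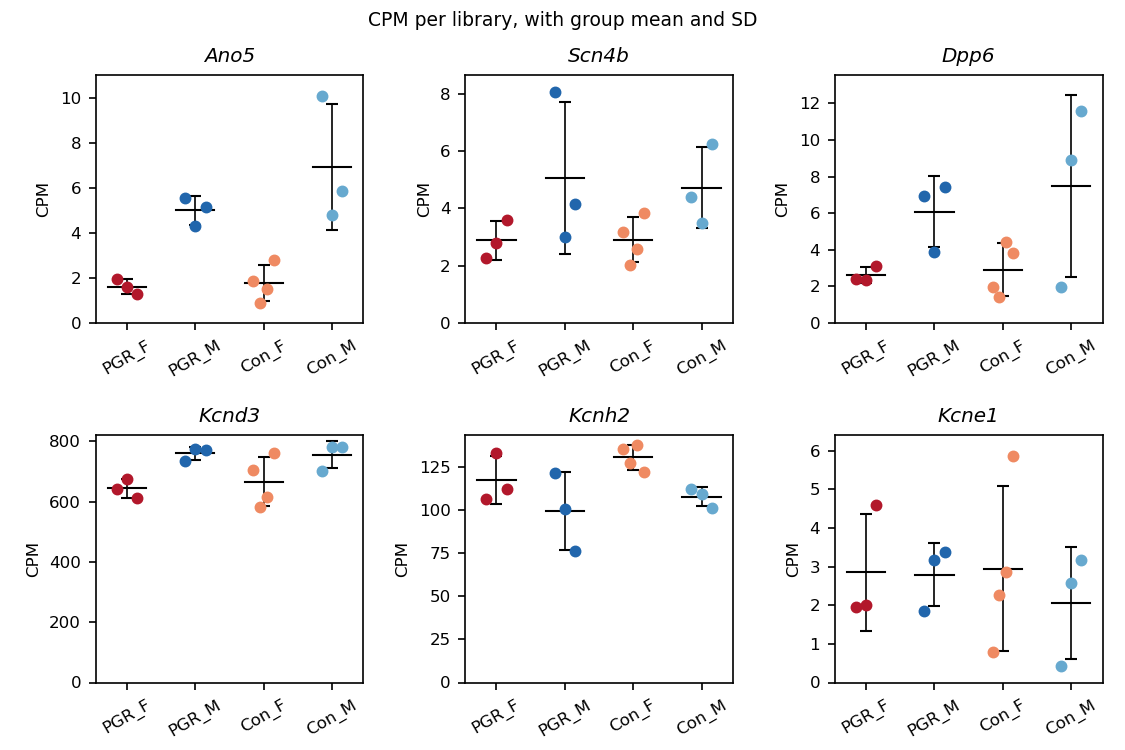
CPM of 6 genes in each library (points), with the group mean (line) and SD (bar), n = 3 libraries in PGR_F, PGR_M and Con_M and 4 in Con_F; the axes start at 0. Female Ano5 libraries reach at most 2.80 CPM and male ones start at 4.30, while the sexes overlap for the other genes.

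The next members by p did not pass. Kcnd3 had 643, 676 and 613 CPM in PGR_F against 735, 774 and 773 in PGR_M, and 706, 583, 615 and 762 in Con_F against 703, 781 and 782 in Con_M. Its log2 fold change was -0.21 (SE 0.07, edgeR adjusted p = 0.157), and the overlap came from Con_F 1 and Con_F 4. Scn4b had 2.28, 2.77 and 3.61 CPM in PGR_F against 8.05, 2.99 and 4.17 in PGR_M, and 3.17, 2.01, 2.58 and 3.83 in Con_F against 4.40, 3.50 and 6.26 in Con_M. Its log2 fold change was -0.75 (SE 0.24, edgeR adjusted p = 0.157), -0.50 without PGR_M 1, and DESeq2 called it with an adjusted p of 0.0251.

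Dpp6 had 2.40, 2.37 and 3.10 CPM in PGR_F against 6.93, 3.89 and 7.45 in PGR_M, and 1.98, 1.40, 4.43 and 3.81 in Con_F against 1.98, 8.92 and 11.6 in Con_M. Con_M 1 and PGR_M 2 lay within the female range of 1.40 to 4.43 CPM, and the other male libraries lay above it, at 6.93 to 11.6 CPM. The log2 fold change of Dpp6 was -1.28 (SE 0.41, edgeR adjusted p = 0.178), and without Con_M 1 it was -1.52 and passed (edgeR adjusted p = 0.0210). Kcnh2 was the member with the smallest p among those above 0, with 106, 133 and 112 CPM in PGR_F against 121, 101 and 76.3 in PGR_M, and 135, 127, 137 and 122 in Con_F against 112, 109 and 101 in Con_M. Its log2 fold change was 0.26 (SE 0.09, edgeR adjusted p = 0.182), 0.17 without PGR_M 3. Atp1b1 was at -0.27, Kcnk3 at -0.23 and Gjc1 at 0.18 on the same scale. Fgf13, on the X chromosome, was at 0.02 (SE 0.08). The inward rectifiers Kcnj2, Kcnj12, Kcnj3 and Kcnj5 lay between 0.00 and 0.05. Of the ATP-sensitive pores, Kcnj11 was at 0.02 and Kcnj8, measured with few counts, at 0.32.

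**Figure D5:**
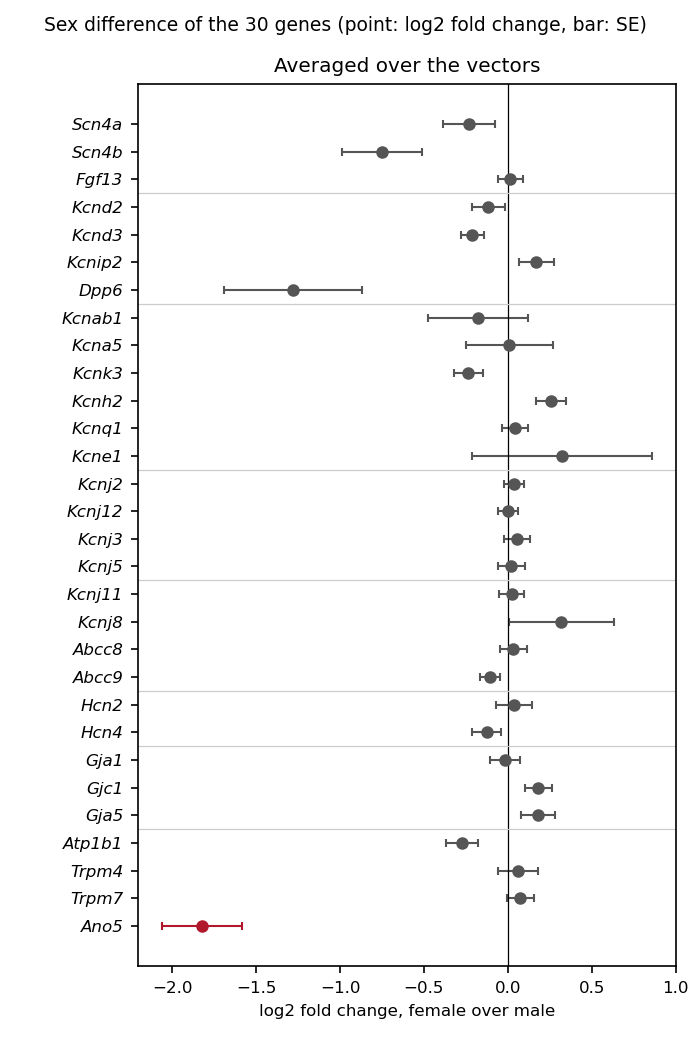
Log2 fold change of females over males, averaged over the vectors, for the 30 genes; points are estimates, bars are 1 SE, and grey lines separate the roles. Ano5, in red, is the gene that passed the test, at -1.82; Dpp6 at -1.28 and Scn4b at -0.75 lie below 0 with wider errors.

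Related genes outside the 30 were read as lists, each with its count of tested genes. Of 12 tested sodium channel subunits and partners, 35 potassium channel subunits, 29 pacemaker, chloride and cation channels, 12 pump genes and 15 connexins, pannexins and scaffolds, 0 passed in any vector comparison or in the difference between the sexes. In the sex comparison 1 passed, Fgf14 (ENSMUSG00000025551, chromosome 14, 123977907 to 124677127, minus strand), a relative of Fgf13 that binds sodium channels. Fgf14 had 1189, 979 and 1003 CPM in PGR_F against 682, 750 and 731 in PGR_M, and 1023, 1072, 852 and 893 in Con_F against 951, 837 and 720 in Con_M. The PGR groups were far apart and the control groups overlapped, and the averaged log2 fold change was 0.38 (SE 0.08, edgeR adjusted p = 0.0415). The female minus male vector effect of Fgf14 was 0.35 (SE 0.16, edgeR adjusted p = 1.00) and did not pass. The sex call of Fgf14 lies near the threshold and was not followed through the alternative settings.

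In the averaged vector comparison the median log2 fold change was -0.05 for the sodium channel list, -0.07 for the potassium channel list, 0.01 for the pacemaker, chloride and cation list, 0.00 for the pump list and 0.03 for the connexin list, against 0.00 over all genes. Panx1, a pannexin channel, was at 0.52 (SE 0.13, edgeR adjusted p = 0.107). Kcng2, a silent potassium channel subunit, was at -0.25. P2rx5, an ATP-gated channel, was at -0.28, and Pkd2, a polycystin channel, at 0.18. Atp1b2, a beta subunit of the pump, was at 0.41 and Slc12a2, a sodium-potassium-chloride cotransporter, at 0.16. Rangrf, which promotes sodium channel traffic to the membrane, was at -0.27 and the scaffold Cnksr1 at -0.39. None of these 8 genes passed.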

How the data were processed

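Per the labels' protocols, RNA of sorted Pcm1-positive nuclei was depleted of ribosomal RNA and made into directional libraries. For 13 libraries the authors deposited gene counts as whole numbers, not normalised. Tools named in the submitters' processing notes are featureCounts 1.5.0 and STAR 2.5.3a, and the builds GRCm38 and mm10, with no role given. Per the file headers each gene has an interval, and in all 55536 genes its length was the end minus the start plus 1, introns included. The smaller deposited table (15645 genes, all 30 members) was an alternative. Intervals were matched to GENCODE M21 for exons, and promoter windows came from RefSeq on GRCm38.p6.

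The test was that of edgeR 4.0.16 (R 4.3.3): filterByExpr over the 4 groups, TMM factors, a robust quasi-likelihood fit of 4 group means to all 13 libraries, and 5 contrasts, with Benjamini-Hochberg adjustment over all 16125 genes and a threshold of 0.05. The submitters' design text does not state a test. SE is the log2 fold change over the square root of F. Log2 values per library used a prior count of 2. The fit was also run on simulated counts with known changes between females and males only. That run did not measure the power to find small vector effects such as those of the members.

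All 30 members are named. Full statistics go to members past the threshold and to the 5 with the smallest p in each comparison, and of other lists to genes past the threshold or the 2 with the smallest p in the averaged vector comparison. Some genes that this rule names are not reported here. Members and lists were chosen with earlier results of these data known. Alternatives were DESeq2 1.42.0, limma-voom (limma 3.58.1), 2 other scalings, no filter, the smaller table, the replicate number as a block, and leaving out each library.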

Additional observations from a re-analysis of the deposited data

Results flagged for a closer look

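Among the 30 genes, the level in Con_F 4 stood apart from the other Con_F libraries for 2 genes by Dixon's test, which chance alone meets in about 1 in 20 groups. Con_F was the only group of 4 libraries, so 30 groups of values were examined, and 2 of 30 is near that rate. Abcc9, a sulfonylurea receptor of the ATP-sensitive channel, had 296.8 CPM in Con_F 4 against 255 to 262 CPM in the other Con_F libraries, a gap of 0.845 of the group's range. Atp1b1, the pump's beta subunit, had 154.2 CPM in Con_F 4 against 115 to 121 CPM in the others, a gap of 0.848 of the range (critical value 0.829). Con_F 4 is also the library with 159 counts of Y-linked genes. Neither gene passed the test in any comparison.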

How the results depend on the processing

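Across 20 alternative settings per result, the number of the 30 genes that passed remained 0 in every vector comparison and in the difference between the sexes. In the sex comparison it was 1, or 2 with DESeq2 (Ano5 and Scn4b), and 1 to 2 when a library was left out, with 2 without Con_M 1 (Ano5 and Dpp6); the cause was not tested. For the 5 members with the smallest p in each comparison, 0 of 500 recomputed log2 fold changes changed sign, and 498 stayed on their side of the threshold, the other 2 being these calls of Scn4b and Dpp6. For the other members, 191 of 2500 changed sign, 11 of the 191 under the replicate block (among them Kcne1 in the sex comparison, 0.32 without the block and -0.06 with it), none of them a called value. The count over all genes moved more. In the averaged vector comparison it was 1, against 339 with DESeq2, 146 without the filter and up to 338 without Con_F 4. In females it was 0, against 81, 25 and up to 20 (without Con_F 4), and in males 0, against 27, 12 and up to 3 (without PGR_M 2). For the difference between the sexes it was 0, against 1, 1 and 0. In the sex comparison it was 143, against 552, 363 and 64 (without Con_M 2) to 465 (without Con_M 1). Other scalings moved the median of all genes by at most 0.02. The replicate numbers did not pair the samples (correlation of deviations from group means of -0.25 to 0.25 over 16 same-numbered pairs, 3 of them over 0.1), and the replicate block left the number of members called at 0, 0, 0, 0 and 1 and the count over all genes at 1, 0, 0, 0 and 143. With 3 or 4 libraries a group, and intervals that hold introns and overlapping genes, small differences in low genes such as Kcnab1, Kcna5 and Kcnj8 (within-group SD of 0.50, 0.35 and 0.61 on the log2 scale) were not detectable.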
